A study of Mus musculus with 8 samples.

Results

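Of 30 genes chosen as markers of bile duct epithelium (cholangiocytes) and of fetal liver progenitors, 28 were measured here, among 19938 genes in all. Each was read from the probe set that the array's annotation gives to that gene alone, and where a gene had more than 1 such set the one with the highest mean over the 8 arrays was used. This choice arose for 1 marker, Bicc1. Spp1 and H19 had no such probe set here and were not analysed. The values are log2 intensities from Affymetrix gene arrays of liver RNA. In 4 samples, here called Hmgb1 deleted, the gene of the chromatin protein HMGB1 had been removed with Albumin-Cre, a recombinase driven by the promoter of the hepatocyte gene for albumin. The other 4, the floxed controls, were littermates that carried floxed Hmgb1 alleles. All samples came from male mice aged 8 weeks. The sample titles name Cre for the deleted group only, so effects of Cre and of Hmgb1 loss cannot be told apart. The labels disagree on tissue (whole liver or stellate cells) and on strain (C57Bl/6 or Balb/c). Nor do they state whether every array had its own mouse, and the p-values cover only the scatter among the 8 arrays, some of which may be technical.

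Hepatocytes and cholangiocytes arise from a shared precursor of the fetal liver, the hepatoblast. Cells that take the bile duct fate next to the portal vein switch on the transcription factor Sox9 and the keratins Krt7 and Krt19 under signals of the Notch pathway, while hepatocytes keep the keratins Krt8 and Krt18. After injury, duct-like cells can multiply (the ductular reaction), and hepatocytes can take on some of the same markers. Fetal hepatocytes also secrete alpha-fetoprotein, encoded by Afp, which is silenced after birth. The albumin promoter is already active in fetal liver, so Cre may also have acted in cells that later formed bile ducts.

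The deleted gene was checked first. Hmgb1, on the probe set of that gene alone, had log2 intensities of 4.91, 4.20, 4.53 and 4.74 on the deleted arrays, against 5.35, 5.42, 5.45 and 5.78 on the control arrays. All 4 deleted arrays lay below all 4 controls, and the difference was −0.91 on the log2 scale (adjusted p = 0.0216 by limma, SE 0.14). This dim set's call was lost without deleted 3 (adjusted p = 0.073), deleted 4 (0.0687), control 3 (0.0561) or control 4 (0.0797), and with all probe sets tested (0.0652). Albumin lay between 13.26 and 14.03 on deleted and between 13.95 and 14.01 on control arrays, so a hepatocyte product was bright on every array. The stellate cell gene Reln lay between 9.05 and 9.29 on deleted and between 9.09 and 9.23 on control arrays. Of the same cells, Des lay between 6.65 and 6.98 on deleted and between 6.73 and 6.99 on control arrays. Lrat lay between 8.65 and 8.83 on deleted and between 7.82 and 8.87 on control arrays, with control 1 the lowest. Floxed control 1 stood apart, with a limma array weight of 0.25 against 0.59 to 2.58 for the other 7 arrays, and calls of named genes that change without it are given both ways.

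Many duct markers were at or near background in these livers. As a measure of background, olfactory and vomeronasal receptor genes were used, 1190 in all, since liver is not known to use them, and a gene was called dim when its mean did not exceed the 95th percentile of theirs, a log2 intensity of 5.97. By this rule 14 of the 28 markers were dim, against 38.1% of all genes tested. The dim ones were Epcam, Cftr, Tspan8, Cldn7, Anxa13, Prom1, Ehf, Elf3, Muc1, Krt23, Sox4 and all 3 measured fetal genes, Afp, Gpc3 and Igf2bp3. Of the dim genes Afp was closest to the limit, with a mean of 5.97, and of the others St14, with 6.10. The 14 above it included Krt8 and Krt18, at means brighter than 98.7% and 96.6% of all genes, and Tm4sf4, Onecut2, Sorbs2, Onecut1 and Dsg2, brighter than 85.5% to 93.5%. Sox9, Pkhd1 and Bicc1 lay above the middle of all genes, and Krt7, Krt19, Cldn4 and St14 below it. Brightness also depends on the probes, so these ranks are not amounts of RNA, and in dim sets a change can be understated. In whole tissue, fewer cells of a type and less RNA per cell cannot be told apart.

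**Figure D1:**
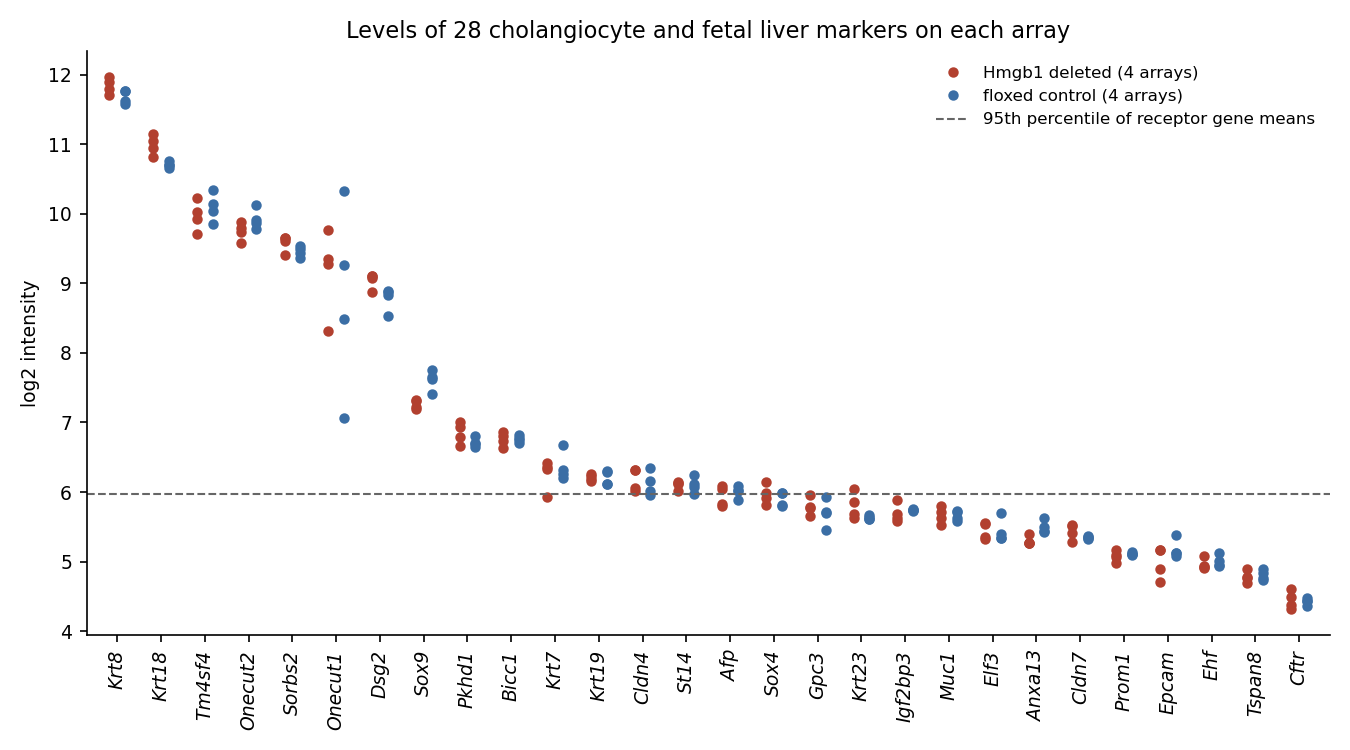
Log2 intensity (vertical axis) of the 28 measured markers, ordered by their mean over the 8 arrays, with 1 point per array (red, Hmgb1 deleted; blue, floxed control). The dashed line is the 95th percentile of the means of receptor genes, 5.97, and 14 markers have means that do not exceed it; Onecut1 has the widest scatter, between 7.06 and 10.33.

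No duct or fetal marker differed between deleted and control livers past the threshold, an adjusted p of 0.05 (0 of 28, limma), where 0.692% of all genes tested did (0.296% higher and 0.396% lower in the deleted livers). That split, 59 higher and 79 lower, was 153 higher and 111 lower after another quantile normalisation and 33 higher and 28 lower with arrays centred on their medians. At an unadjusted p under 0.05 there were 4, Krt18 and Dsg2 higher and Sox9 and Anxa13 lower in the deleted livers, or 14.3% of the markers against 9.46% of all genes. The 2 groups of arrays did not overlap for 3 markers, Krt18 higher and Sox9 and Anxa13 lower, or 10.7%, against 5.57% of all genes (3.28% higher and 2.30% lower). The markers and the lists below were chosen with earlier results of these data known, so such shares are descriptions only. In direction 16 markers were higher and 12 lower, and the median log2 fold change was 0.0025, beside 0 for all genes tested. The median size of the difference, without its sign, was 0.088 for the markers and 0.058 for all genes.

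The intervals bound changes in measured intensity. For the 14 dim markers they do not bound a change in RNA, since signal near background can understate it. For 27 of the 28 markers (96.4%, against 97.2% of all genes) the 95% interval lay within a 1.5-fold change in either direction. These were all 14 dim markers and 13 of the 14 others. The exception was Onecut1, whose interval ran from −0.85 to 1.63 on the log2 scale. Between markers the fold changes ran from −0.35 for Sox9 to 0.39 for Onecut1.

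**Figure D2:**
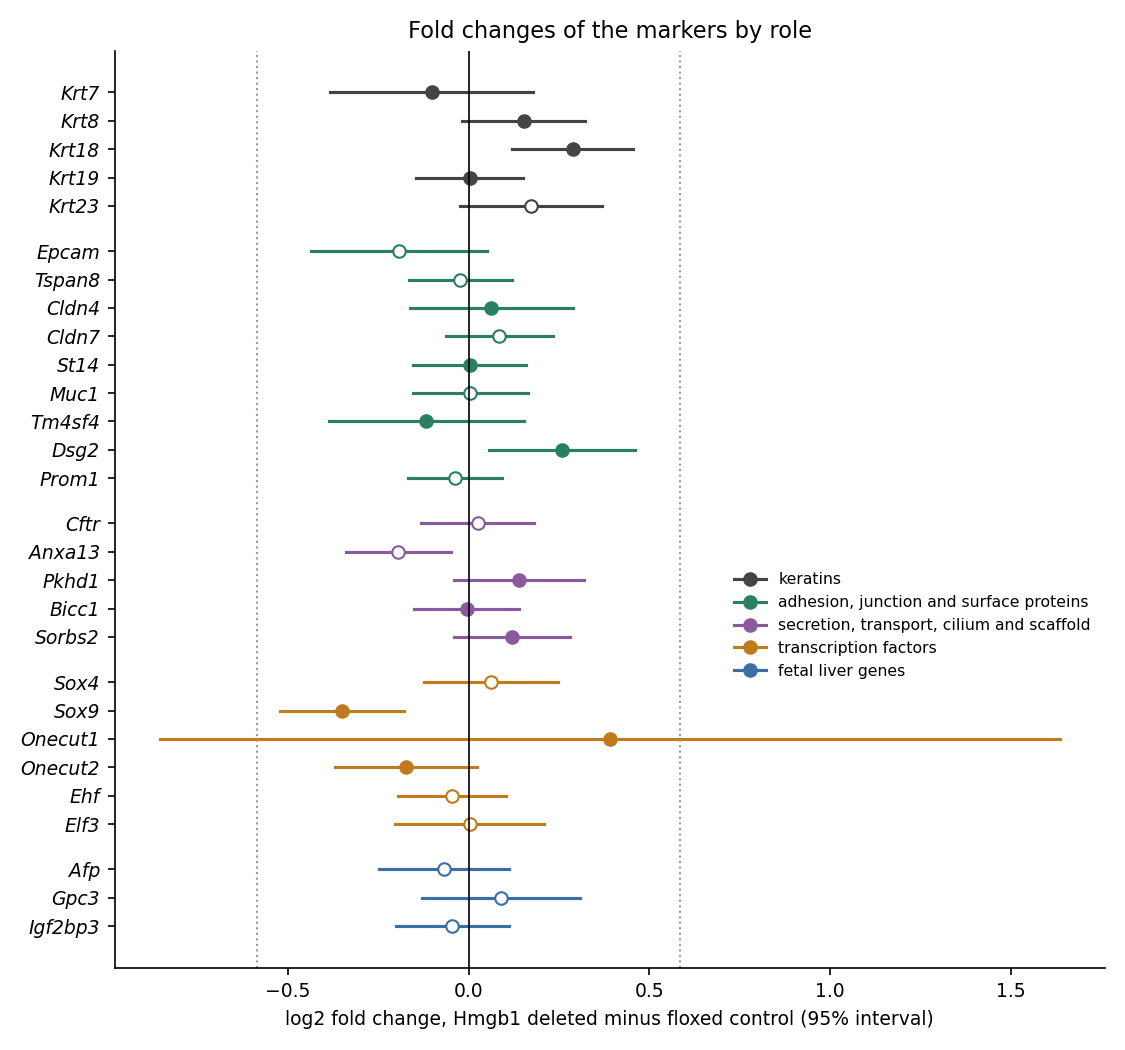
Log2 fold change, Hmgb1 deleted minus floxed control (horizontal axis), of the 28 markers with its 95% interval, grouped by role; open circles are dim sets and dotted lines mark a 1.5-fold change. The intervals of Krt18, Dsg2, Anxa13 and Sox9 do not reach 0, and that of Onecut1 alone crosses the dotted lines.

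Keratins form the filaments of epithelial cells. Krt8 and Krt18 encode partners that pair with each other in hepatocytes and duct cells alike, and they lie near each other on chromosome 15, with 2 annotated genes between them. Krt18 had log2 intensities of 10.82, 11.05, 11.15 and 10.94 on the deleted arrays, against 10.70, 10.70, 10.65 and 10.76 on the control arrays. Every deleted array lay above every control, and the deleted arrays were the more spread out. The log2 fold change was 0.29 (SE 0.076, 1.22-fold, limma adjusted p = 0.153), and Krt18 passed the threshold with array weights (0.0313) and without both arrays numbered 1 (0.0453). In the other alternatives Krt18 did not pass, with a limma adjusted p of up to 0.334. Krt8 had 11.79, 11.89, 11.96 and 11.70 on the deleted arrays, against 11.57, 11.77, 11.62 and 11.77 on the control arrays. Deleted 3 and deleted 2 were the highest arrays for both genes, but for Krt8 deleted 4 lay below controls 2 and 4, and the groups overlapped. For Krt8 the log2 fold change was 0.15 (SE 0.077, adjusted p = 0.626).

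The start regions of these paired genes are shown because their protein products work as a pair while only Krt18 separated the groups. Whether Krt8 and Krt18 responded differently was not tested. The intervals of their log2 fold changes overlapped (−0.017 to 0.32 for Krt8 and 0.12 to 0.45 for Krt18). The sequences come from RefSeq (GRCm38.p6), from 250 bases before to 50 bases after the annotated start, 5′ to 3′ on the gene's own strand. Capitals mark matches, on either strand, to the TATA box (TATAAA), the GC box (GGGCGG) and the core letters bound by RBPJ, the Notch effector (TGGGAA), by TEAD, the Hippo effector (GGAATG), and by Onecut factors (ATTGAT).
Krt8, chr15:102004293-102004592, minus strand: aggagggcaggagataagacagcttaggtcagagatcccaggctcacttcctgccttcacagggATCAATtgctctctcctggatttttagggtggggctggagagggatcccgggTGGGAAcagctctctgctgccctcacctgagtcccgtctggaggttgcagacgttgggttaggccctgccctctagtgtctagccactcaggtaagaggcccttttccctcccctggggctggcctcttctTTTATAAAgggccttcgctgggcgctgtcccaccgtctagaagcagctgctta
Krt18, chr15:102027966-102028265, plus strand: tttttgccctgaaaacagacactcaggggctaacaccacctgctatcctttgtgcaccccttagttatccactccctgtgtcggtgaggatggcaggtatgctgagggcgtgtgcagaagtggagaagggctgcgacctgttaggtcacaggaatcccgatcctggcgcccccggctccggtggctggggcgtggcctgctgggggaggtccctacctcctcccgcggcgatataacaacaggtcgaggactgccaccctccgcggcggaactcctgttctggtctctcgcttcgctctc
The Krt8 window held an Onecut core starting at position −186, an RBPJ core at −134 and 2 overlapping TATA matches, on opposite strands, at −3 and −1, counting −1 as the base before the start. Of all 32851 such windows, 7.54% held an Onecut core, 25.6% an RBPJ core and 13.6% a TATA box. The Krt18 window held none of these motifs, nor a GC box or TEAD core, which 35.7% and 14.7% of windows held. The GC content was 58.0% for Krt8 and 61.3% for Krt18, beside a median of 52.7%. These matches are letters only and were not measured as bound sites.

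The keratins that set ducts apart from hepatocytes gave no difference past the threshold. Krt19 had log2 intensities of 6.18, 6.23, 6.16 and 6.26 on the deleted arrays, against 6.29, 6.12, 6.11 and 6.30 on the control arrays. Krt7 had 6.42, 6.33, 6.36 and 5.93 on the deleted arrays, against 6.68, 6.31, 6.20 and 6.26 on the control arrays. The groups overlapped fully for Krt19, and for Krt7 the lowest array was a deleted one and the highest a control. The log2 fold change was 0.0025 for Krt19 (95% interval −0.14 to 0.15) and −0.10 for Krt7 (−0.38 to 0.18), which was 0.0075 without deleted 4 and 0.0033 without control 1. Krt23, a keratin of ducts and injured liver, was dim, at 5.63 to 6.05 on deleted and 5.61 to 5.67 on control arrays. Its log2 fold change was 0.17 (SE 0.088, adjusted p = 0.636), and the group difference was not larger than the spread of the deleted arrays; without deleted 2, the highest array, it was 0.091.

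Among proteins of the duct cell surface and its junctions, 0 of 9 passed (limma; 1 at an unadjusted p under 0.05), 5 were higher and 4 lower, and the median log2 fold change was 0.0025. Dsg2, a cadherin of desmosomes, had log2 intensities of 8.87, 9.11, 9.07 and 9.10 on the deleted arrays, against 8.53, 8.83, 8.89 and 8.87 on the control arrays. Deleted replicate 1 equalled control 4 and lay below control 3, while the other 3 deleted arrays lay above all controls. Its log2 fold change was 0.26 (SE 0.092, adjusted p = 0.336), and without control 1, the lowest array, it was 0.17 (adjusted p = 0.304). Epcam, an adhesion molecule that defines duct epithelium, was dim, at 5.17, 4.89, 5.16 and 4.71 on the deleted arrays, against 5.12, 5.38, 5.12 and 5.08 on the control arrays. Deleted 2 and 4 lay below the rest, deleted 1 and 3 lay within the controls' range, and the log2 fold change of −0.19 (SE 0.11) had an adjusted p of 0.711. Its size depended on single arrays: it was −0.10 without deleted 4 and −0.12 without control 2.

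The other 7 surface markers overlapped between groups. Tm4sf4, a tetraspan membrane protein, lay between 9.71 and 10.23 on deleted and between 9.85 and 10.34 on control arrays, and its log2 fold change of −0.12 (SE 0.12) was −0.029 without deleted 3, −0.035 without control 1 and −0.20 without deleted 2 or control 2. The tight junction genes Cldn4 (6.02 to 6.32 on deleted and 5.95 to 6.34 on control arrays) and Cldn7 (5.28 to 5.53 on deleted and 5.32 to 5.37 on control arrays) had log2 fold changes of 0.062 and 0.085. Those of Cldn4 ran from 0.0067 without control 2 to 0.137 without control 1, and those of Cldn7 from 0.0525 without deleted 3 to 0.136 without deleted 4. St14, which encodes the membrane protease matriptase, lay between 6.02 and 6.14 on deleted and between 5.97 and 6.25 on control arrays. All 4 had adjusted p-values of 0.866 or higher. Muc1, a membrane mucin, had a log2 fold change of 0.0050, Tspan8, a tetraspanin, of −0.022, and Prom1, which encodes the progenitor antigen CD133, of −0.038, and all 3 sets were dim.

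Genes of secretion, the cilium and the cytoskeletal scaffold also held none past the threshold (0 of 5, limma; 1 at an unadjusted p under 0.05). Anxa13, an annexin that binds membranes, was dim and had log2 intensities of 5.27, 5.40, 5.26 and 5.27 on the deleted arrays, against 5.62, 5.49, 5.43 and 5.44 on the control arrays. The groups did not overlap, although deleted 2 lay just below controls 3 and 4. The log2 fold change was −0.20 (SE 0.066, adjusted p = 0.303). Pkhd1, whose product fibrocystin sits in the primary cilium of duct cells, lay between 6.66 and 7.01 on deleted and between 6.65 and 6.80 on control arrays, with a log2 fold change of 0.14 (SE 0.081), or 0.087 without deleted 4. Sorbs2, an adaptor of the actin skeleton, lay between 9.41 and 9.65 on deleted and between 9.37 and 9.54 on control arrays (log2 fold change 0.12, SE 0.072). For Pkhd1 deleted 2 and 4 lay above all controls, and for Sorbs2 all deleted arrays but deleted 1 did. Bicc1, an RNA-binding protein whose loss gives cystic kidneys in mice, had a log2 fold change of −0.0050 on the set used and of −0.070 on its other, dimmer set. The chloride channel Cftr, the defining secretory gene of duct cells, was the dimmest marker, brighter than 4.80% of genes, and its values ran from 4.32 to 4.60 on deleted and from 4.36 to 4.47 on control arrays.

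Of the 6 transcription factors, Sox9 came closest to the threshold of all 28 markers. Its log2 intensities were 7.32, 7.31, 7.22 and 7.19 on the deleted arrays, against 7.41, 7.65, 7.75 and 7.63 on the control arrays. All 4 deleted arrays lay below all 4 controls, and control 1 was the control nearest to them. The log2 fold change was −0.35 (SE 0.078, 1.27-fold lower, limma adjusted p = 0.0854). Without control 1 it was −0.42 and passed the threshold (adjusted p = 0.0102), whereas without any other single array the adjusted p was between 0.114 and 0.27. It also passed after another quantile normalisation (0.042), with array weights (0.00553) and without both arrays numbered 1 (0.0114). In the other alternatives Sox9 did not pass. Its limma adjusted p was 0.239 with arrays centred on their medians, 0.17 with all probe sets tested and 0.11 with a trended prior. Onecut2, a homeobox factor of hepatoblasts and ducts, lay between 9.58 and 9.88 on deleted and between 9.78 and 10.13 on control arrays. Its log2 fold change was −0.17 (SE 0.089, adjusted p = 0.642), or −0.10 without control 2.

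Onecut1, which encodes the hepatocyte nuclear factor HNF6, acts with Onecut2 in duct formation and remains active in adult hepatocytes. Its log2 intensities were 9.28, 9.76, 8.31 and 9.35 on the deleted arrays, against 7.06, 10.33, 8.49 and 9.26 on the control arrays. Controls 1 and 2 were the lowest and the highest of all arrays, and the deleted arrays lay between them. The SD over the control arrays was 1.38, and 99.96% of all genes had a smaller spread within groups. The log2 fold change of 0.39 (SE 0.56, adjusted p = 0.970) had no settled sign: it was −0.185 without control 1 and 0.905 without control 2. Sox4, a partner of Sox9 in duct development, and the epithelial ETS factors Ehf and Elf3 were dim, with log2 fold changes of 0.062, −0.045 and 0.0025. Without control 1, that of Ehf was −0.0042 and that of Elf3 0.0875, and without deleted 2 that of Sox4 was 0.0.

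**Figure D3:**
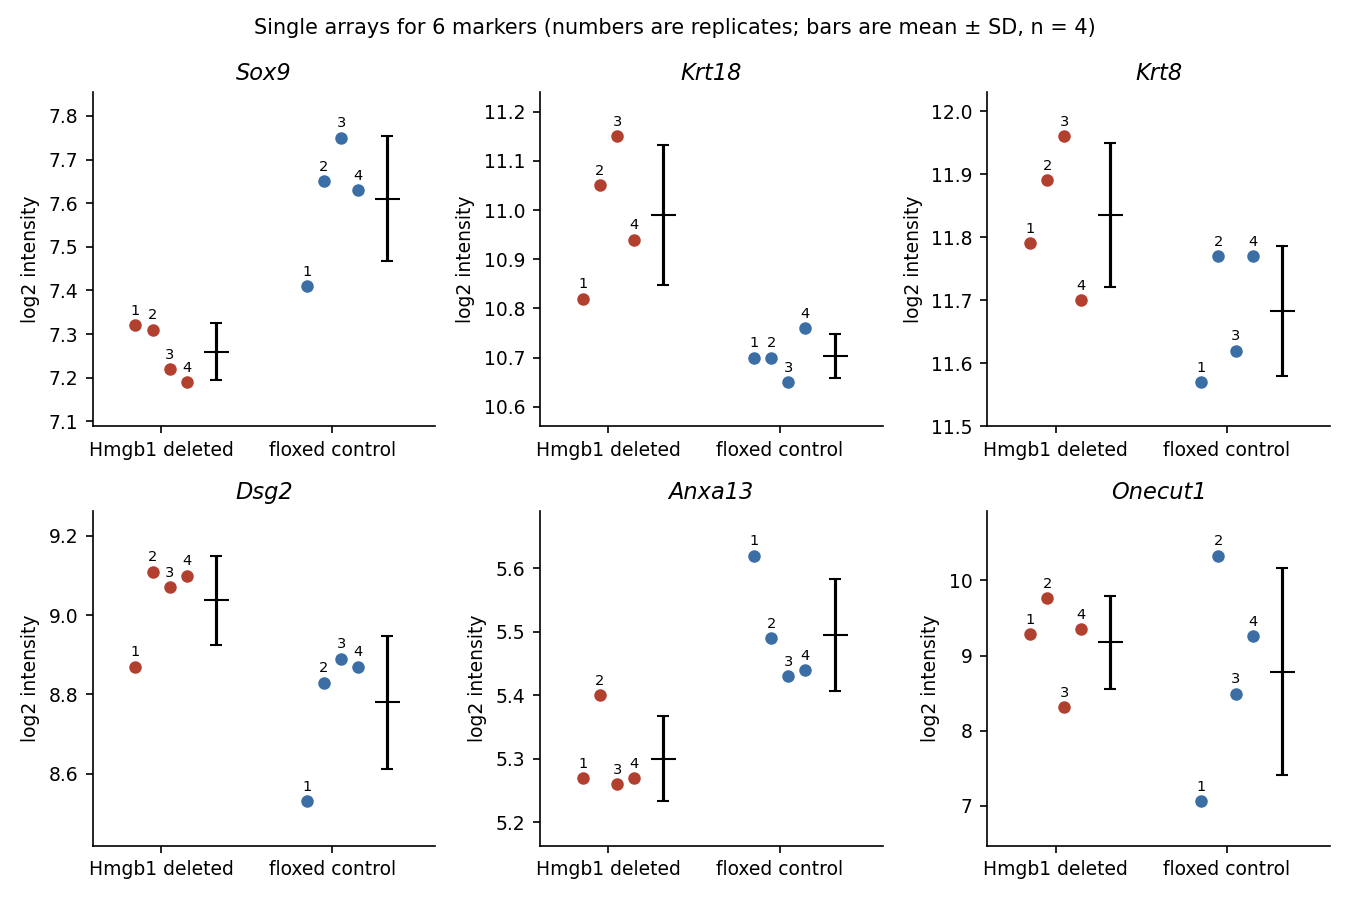
Log2 intensity (vertical axes, each with its own range) of 6 markers on the 4 Hmgb1 deleted and 4 floxed control arrays, numbered by replicate, with mean ± SD at the right of each group. The groups do not overlap for Sox9, Krt18 and Anxa13; they overlap for Krt8, Dsg2 and Onecut1.

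The fetal liver genes were dim by their means over all 8 arrays, and none passed the threshold (0 of 3, limma; 0 at an unadjusted p under 0.05). Afp had log2 intensities of 5.80, 6.04, 6.08 and 5.83 on the deleted arrays, against 6.09, 6.03, 6.02 and 5.88 on the control arrays. Gpc3, a glypican of fetal and cancerous hepatocytes, had 5.77, 5.95, 5.79 and 5.65 on the deleted arrays, against 5.93, 5.70, 5.46 and 5.71 on the control arrays. The groups overlapped for both, and Afp lay just at the limit for dim sets, with 2 deleted and 3 control arrays above it. Log2 fold changes were −0.068 for Afp (95% interval −0.25 to 0.11), 0.090 for Gpc3 (−0.13 to 0.31) and −0.045 for Igf2bp3, a fetal RNA-binding protein (−0.20 to 0.11). With 1 array left out they ran from −0.115 to −0.0217 for Afp (without deleted 3 and deleted 1), from 0.01 to 0.167 for Gpc3 (without control 3 and control 1) and from −0.107 to −0.01 for Igf2bp3 (without deleted 2 and deleted 3). A rise of 1.5-fold in measured intensity lay outside all 3 intervals.

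Genes that control Afp in adult mouse liver were set beside these values. Zhx2 and Zbtb20 encode repressors of Afp there. Zhx2 had log2 intensities of 7.91, 7.97, 8.02 and 8.11 on the deleted arrays, against 7.51, 7.78, 7.87 and 7.72 on the control arrays. All deleted arrays lay above all controls, a difference of 0.28 in log2 units (adjusted p = 0.213 by limma, SE 0.083), which was 0.21 without control 1. Zbtb20 lay between 10.01 and 10.23 on deleted and between 9.73 and 10.48 on control arrays, and its log2 fold change of −0.045 had a SE of 0.13. At an unadjusted p under 0.05 (limma), 2 of the 16 measured genes of this list were higher and 1 lower, or 18.8% against 9.46% of all genes. Only Zhx3, a relative of Zhx2, passed the threshold. It fell by 0.32 in log2 units (adjusted p = 0.0398, SE 0.058), to 8.92 to 9.04 in deleted against 9.26 to 9.38 in control livers. The Zhx3 call was lost when any array but control 1 was left out (limma adjusted p of 0.081 to 0.176). It was also lost with all probe sets tested (0.07), with arrays centred on their medians (0.128) and with a trended prior (0.0559). The homeodomain factor gene Zfhx3, also a repressor of Afp, had a log2 fold change of 0.21 (SE 0.063, adjusted p = 0.226).

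A further 33 biliary epithelial genes gave 1 that passed, lower, where 0.692% of all genes did. In direction 17 were higher and 16 lower, and the median log2 fold change was 0.0025. At an unadjusted p under 0.05 (limma) 3 were higher and 5 lower, or 24.2% against 9.46% of all genes. The groups did not overlap for 2 higher and 3 lower, or 15.2% against 5.57% of all genes. This list was chosen with earlier results of these data known, so its shares are descriptions only. Alcam, a cell adhesion molecule, fell to 8.92, 9.04, 8.90 and 9.11 in deleted livers, against 9.25, 9.35, 9.40 and 9.43 in control livers. The groups did not overlap, and the log2 fold change was −0.365 (SE 0.070, limma adjusted p = 0.0469). This call was lost when any array but control 1 was left out (adjusted p of 0.0689 to 0.187). It was also lost with all probe sets tested (0.0997), with arrays centred on their medians (0.199) and with a trended prior (0.0555). Pigr, the receptor that carries immunoglobulin A into bile, had 12.10, 12.12, 12.17 and 11.95 on the deleted arrays, against 11.76, 11.57, 11.82 and 11.71 on the control arrays. Its log2 fold change of 0.37 (SE 0.074) had an adjusted p of 0.0557. It passed without control 1 (0.0387), with the filter on dim genes (0.0477), after another quantile normalisation (0.0103), with a trended prior (0.0434), with array weights (0.012) and with the replicate block (0.0391). In the other alternatives Pigr did not pass, with a limma adjusted p of up to 0.187. The tight junction gene Cldn8 was dim, with a log2 fold change of −0.17 (adjusted p = 0.326).

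Neither of the pathways that drive duct fate held a gene past the threshold. Of 21 measured Notch genes 7 were higher, 13 lower and 1 equal, with a median of −0.0175. By limma 0 of 21 passed, and 3 had an unadjusted p under 0.05, or 14.3% against 9.46% of all genes. The receptor gene Notch2 lay between 8.73 and 9.04 on deleted and between 8.38 and 8.74 on control arrays (log2 fold change 0.27, SE 0.092, adjusted p = 0.306). Hes1, a Notch target, lay between 6.35 and 6.72 on deleted and between 6.58 and 7.04 on control arrays. Its log2 fold change was −0.325 (SE 0.11, adjusted p = 0.314) and the groups overlapped through deleted 1 and control 1. Among the alternatives Hes1 passed only with array weights (−0.39, limma adjusted p = 0.0368) and without both arrays numbered 1 (−0.48, 0.0254). Nrarp, another target and a feedback inhibitor, had −0.21 and was dim. Notch2 and these targets had fold changes of opposite sign, none past the threshold with all 8 arrays weighted equally.

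Of 19 measured genes of the Hippo pathway, which restrains the growth regulator YAP, 8 were higher and 11 lower, with a median of −0.0075. By limma 0 of 19 passed, and 4 had an unadjusted p under 0.05, or 21.1% against 9.46% of all genes. Yap1 itself lay between 9.32 and 9.46 on deleted and between 9.07 and 9.28 on control arrays, with a log2 fold change of 0.18 (SE 0.066, adjusted p = 0.356). Ajuba, an inhibitor of Hippo kinases, had 0.24 (SE 0.069, adjusted p = 0.202). Ccn2, a YAP target that other signals also induce, lay between 8.88 and 8.97 on deleted and between 9.02 and 9.80 on control arrays. The groups did not overlap for Yap1, Ajuba or Ccn2, which made 15.8% of the list, against 5.57% of all genes. For Ccn2 the log2 fold change was −0.375 (SE 0.14, adjusted p = 0.388), and −0.21 without control 1, its highest array.

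Of 23 further fetal and oncofetal genes, 10 were higher, 12 lower and 1 equal, with a median of −0.0025. By limma 2 had an unadjusted p under 0.05, or 8.7% against 9.46% of all genes. Lpl, lipoprotein lipase, which adult hepatocytes make little of, was the 1 that passed. It fell to 7.12, 7.35, 6.91 and 7.10 in deleted livers, against 7.41, 8.14, 8.21 and 8.12 in control livers, a log2 fold change of −0.85 (SE 0.16, adjusted p = 0.0473). Control 1 lay far below the other controls. Without it the fold change was −1.04 (adjusted p = 0.000579), and without any other array the call was lost (0.0738 to 0.182). Testing all probe sets (limma adjusted p = 0.126) or centring each array on its median (0.128) also lost the Lpl call. The imprinted gene Peg3 had −0.26 (SE 0.069, adjusted p = 0.164; 0.0225 with array weights), and Cdh2, N-cadherin, which hepatocytes carry, had −0.13.

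**Figure D4:**
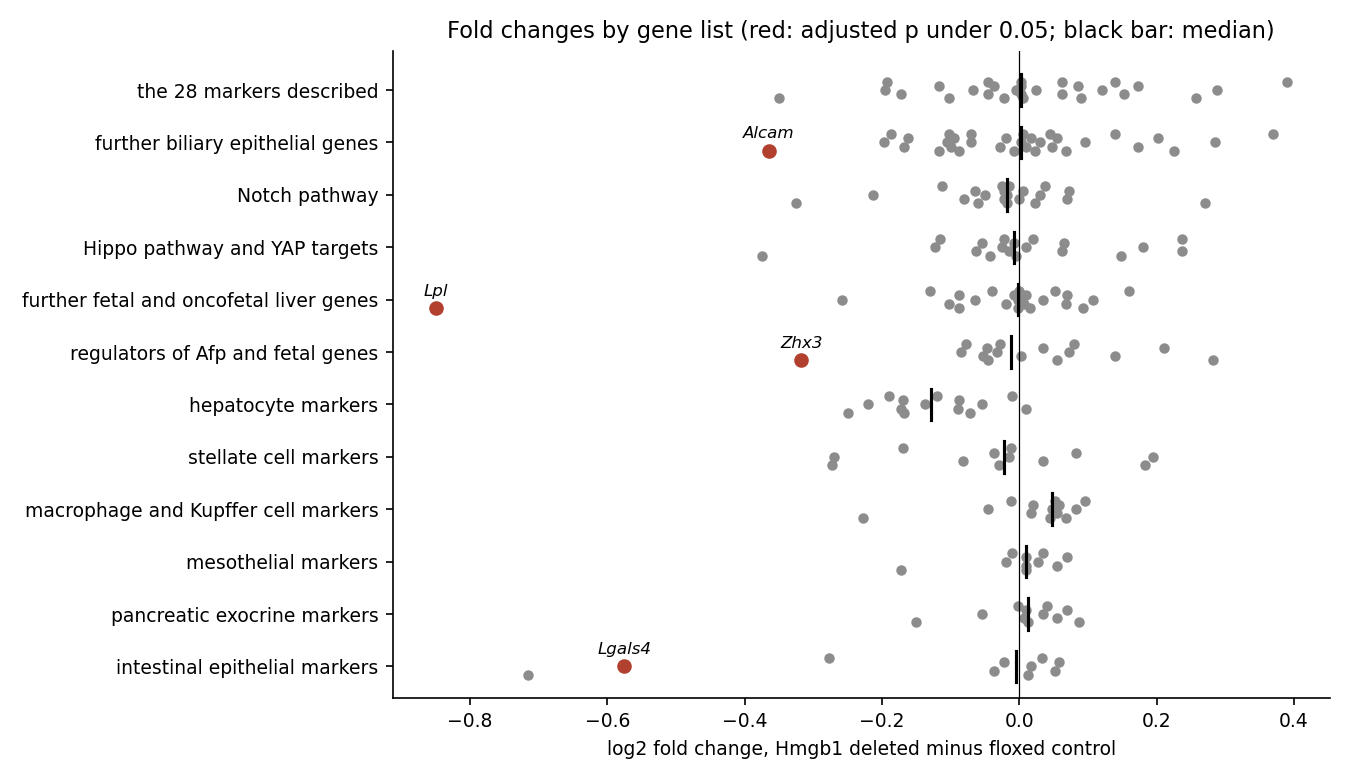
Log2 fold change, Hmgb1 deleted minus floxed control (horizontal axis), of each measured gene in the marker set and in 11 further lists; red points are the 4 genes with a limma adjusted p under 0.05, and black bars are medians. The marker set centres on 0, as do the Notch, Hippo and fetal lists, and the hepatocyte markers have a median of −0.13.

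Other cells could bring the same markers, and their gene lists were read beside them. Mesothelial cells, which also carry simple keratins, had 10 measured markers, 0 of which passed (1 at an unadjusted p under 0.05, Gpm6a at −0.17), with a median of 0.010. Their summed intensity was 626 to 713 on deleted and 597 to 720 on control arrays. Pancreatic exocrine genes held 0 of 11 past the threshold (0 at an unadjusted p under 0.05) and summed to 802 to 888 on deleted and 803 to 959 on control arrays. Macrophage and Kupffer cell markers held 0 of 13 (1 unadjusted, Vsig4 at −0.23), with a median of 0.048, and stellate cell markers 0 of 12 (3 unadjusted, Dcn at −0.17, Rgs5 at −0.27 and Ngfr at 0.195), with a median of −0.0225. Rgs5, a gene of pericytes and stellate cells, passed only without control 1 (−0.39, limma adjusted p = 0.0391), with array weights (0.0427) and without both arrays numbered 1 (0.0408). The summed intensities were 6587 to 7244 on deleted and 6560 to 7272 on control arrays for macrophages, and 7150 to 7868 on deleted and 7534 to 8040 on control arrays for stellate cells. Hepatocyte markers were lower for 13 of 14 (0 past the threshold, 2 unadjusted, Ttr at −0.25 and Pck1 at −0.22, and next Serpina1c at −0.17), and summed to 89364 to 119346 on deleted and 116776 to 122871 on control arrays. Deleted 4 gave the lowest of these sums. The size of these falls depended on the processing and on single arrays. Over all alternatives they ran from −0.3075 to −0.1216 for Ttr, −0.2808 to −0.1067 for Pck1 and −0.215 to −0.0533 for Serpina1c. For Alb, −0.19 became 0.0005 after another quantile normalisation and −0.0142 without deleted 4. The next smallest p-values in these lists belonged to Clec4f (0.082) and Cd68 (0.095) of macrophages, Krt14 (0.070) and Upk3b (0.055) of mesothelium, and Cela1 (−0.15), Cela2a (0.088) and Cela3b (−0.055) of the pancreas, all log2 fold changes with an adjusted p of 0.736 or higher. The part of these cells in the differences of Krt18 and Sox9 was not tested.

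Of 10 measured genes of intestinal epithelium, some of which gallbladder and large ducts also use, 1 passed (limma; 2 at an unadjusted p under 0.05). Lgals4, the lectin galectin 4, fell to 6.97, 6.90, 6.99 and 7.02 in deleted livers, against 7.37, 7.67, 7.57 and 7.57 in control livers. The log2 fold change was −0.575 (SE 0.072, adjusted p = 0.0073), the groups did not overlap, and the call was kept whichever array was left out (adjusted p of 0.000949 to 0.0375). Tff3, a secreted trefoil peptide of mucous cells, lay between 6.49 and 6.82 on deleted and between 6.97 and 8.14 on control arrays. Its log2 fold change was −0.715 (SE 0.21, adjusted p = 0.197), and −0.48 without control 1, its highest array. Fabp2, a fatty acid binding protein, had −0.28 (adjusted p = 0.807). The list had 5 genes higher and 5 lower, with a median of −0.0050, and its summed intensity was 1114 to 1346 on deleted and 1383 to 1488 on control arrays. A sum gives bright genes the most weight, so these sums do not show a fall of the whole list. Fabp2, the brightest of the genes named here, lay between 8.63 and 9.38 on deleted and between 8.69 and 9.49 on control arrays.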

How the data were processed

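Liver RNA of 4 Hmgb1 deleted and 4 floxed control samples was measured on Affymetrix Mouse Gene 1.0 ST arrays. The deposited table holds log2 intensities per probe set, normalised with RMA per the submitters' processing notes; the sources used here name no build. Probe sets with a single gene symbol were kept, 1 per gene (the highest mean over 8 arrays), which left 19938 genes. The 2 groups were compared by a linear model with group as its only term (lmFit, eBayes; limma 3.58.1, R 4.3.3), with Benjamini-Hochberg adjustment over all genes and a threshold of 0.05. Tables and figures were made with Python 3.11.15 and matplotlib 3.10.9. The fit was also run on simulated arrays with known changes and independent noise for each gene. Those arrays had no array-wide deviations, so that run cannot show how the fit handles an array like control 1. Arrays give no read depth; their number limits the precision. Named genes were Hmgb1 and all 30 markers. Of each other list, genes past the threshold and the 3 with the smallest p were named, plus Zhx2 and Zbtb20. Alb, Reln, Des, Lrat and the genes set beside Onecut1 were chosen apart from this rule. Those beside Onecut1 were chosen after their values were seen. A further 11 gene lists gave context. The markers and lists were chosen with earlier results of these data known. Replicate numbers were not used as pairs in the main fit. Same-numbered deviations correlated at 0.447, 0.065, −0.081 and 0.422, which cannot settle whether the samples were paired. Alternatives varied the probe sets, filter, normalisation, variance prior, array weights, replicate block and arrays left out. Leaving out both arrays numbered 1 was added after seeing the data.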

Additional observations from a re-analysis of the deposited data

Results flagged for a closer look

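In 11 of 128 groups of 4 arrays, 1 array stood apart from the other 3 by Dixon's gap test at the 95% level; chance gives about 1 in 20 such groups, or 6.4. For Dsg2 this held in both groups: deleted 1 at 8.87 against 9.07 to 9.11 on the other deleted arrays, and control 1 at 8.53 against 8.83 to 8.89 on the other controls. Sorbs2 was low on deleted 1 (9.41 against 9.61 to 9.65), and St14 was low on deleted 2 (6.02 against 6.12 to 6.14). Anxa13 was high on deleted 2, at 5.40 against 5.26 to 5.27. Epcam was high on control 2 (5.38 against 5.08 to 5.12), and Elf3 was high on control 1 (5.70 against 5.34 to 5.40). Among genes of the other lists, Rgs5 was low on deleted 1 (7.76 against 7.98 to 8.01), Gpm6a on deleted 3 (6.04 against 6.27 to 6.29) and Lpl on control 1 (7.41 against 8.12 to 8.21). Albumin was low on deleted 4, at 13.26 against 13.93 to 14.03, the array with the lowest sum of hepatocyte markers. Deleted 1 and control 1 each held 3 of these values.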

How the results depend on the processing

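Of 28 markers, 17 had no sign change of their fold change in any alternative run and 11 did, with 36 sign changes among 490 values; the causes were not tested. The count of genes called, 138, was 57 with all probe sets tested, 264 after another quantile normalisation, 61 with arrays centred, 526 with array weights, 366 without both arrays numbered 1 and 37 to 321 with 1 array left out. Markers called, 0, became 1 after quantile normalisation (Sox9, adjusted p = 0.042), 2 with array weights (Sox9 0.00553, Krt18 0.0313), 2 without both arrays numbered 1 (Sox9 0.0114, Krt18 0.0453), and 0 to 1 with 1 array left out. Markers whose groups did not overlap, 3, were 5 after quantile normalisation, 5 without both arrays numbered 1, 3 to 5 with 1 array left out, and 2 with centred arrays or with dim genes filtered out. The share of all genes, 5.57%, was then 8.5%, 19.1%, 7.0% to 13.3%, 4.87% and 7.83%. Genes called in the context lists, 4, were 1 with all probe sets, 1 with centred arrays, 8 with array weights and 1 to 6 with 1 array left out. The replicate block called 325 genes and 0 markers. Whether replicate numbers pair the samples was not settled. Deleted 1 and deleted 4 correlated best with the control of the same number, but deleted 2 with control 4 and deleted 3 with control 1. Signs turned for Onecut1 (−0.0166 with array weights, −0.22 without both arrays numbered 1), Bicc1 (0.0097 after quantile normalisation, 0.015 centred, 0.0207 with weights, 0.0067 without both), Ehf (0.01 without both), Afp (0.002 with weights, 0.0067 without both), Cela3b (0.0096 with weights) and Alb (0.0005 after quantile normalisation). With 1 array left out, log2 fold changes spanned −0.1567 to 0.0075 for Krt7, −0.0292 to 0.0342 for Krt19, 0.0 to 0.1133 for Sox4, −0.0258 to 0.0675 for Cftr, −0.0583 to 0.0083 for Tspan8, −0.0408 to 0.0525 for St14, −0.04 to 0.05 for Muc1, −0.185 to 0.905 for Onecut1, −0.04 to 0.0367 for Bicc1 and −0.035 to 0.0875 for Elf3. Outside the markers they spanned −0.18 to 0.07 for Zbtb20, −0.0267 to 0.13 for Krt14, −0.0533 to 0.1467 for Upk3b and −0.1017 to 0.005 for Cela3b. For the 14 dim markers, signal near background limits what change could be seen.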

Other observations

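The scatter of Onecut1 was shared with a few other genes, which were chosen after their values were seen. Socs2 and Cish, which encode inhibitors of cytokine signalling and are known targets of growth hormone through STAT5, and Foxa2, a liver transcription factor, also varied widely within groups. Socs2 had log2 intensities of 7.26, 8.97, 6.80 and 8.04 on the deleted arrays, against 6.05, 9.80, 8.97 and 9.17 on the control arrays. Cish had 8.05, 8.23, 7.24 and 8.01 on the deleted arrays, against 7.27, 8.90, 6.85 and 7.91 on the control arrays. Foxa2 had 8.16, 8.30, 7.88 and 8.11 on the deleted arrays, against 7.51, 8.63, 7.62 and 8.13 on the control arrays. For all 4 genes deleted 2 was the highest and deleted 3 the lowest deleted array, and control 2 was the highest control. Control 1 was the lowest control for Onecut1, Socs2 and Foxa2, and control 3 for Cish. The spread within groups exceeded that of 99.96% of genes for Onecut1, 99.98% for Socs2, 99.85% for Cish and 99.32% for Foxa2.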
